A study of Mus musculus with 19 samples.

Results

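The 44 genes described here encode parts of the machinery that segregates chromosomes at cell division: kinetochore proteins, the spindle checkpoint, the Aurora kinases and their chromosomal passenger partners, the anaphase-promoting complex with securin and separase, spindle motors, the central spindle and the condensins. They were taken by symbol from a fixed list, drawn up with earlier results of these data known. No measured value served as a filter, and 44 of 44 were found among the 22419 genes in the deposited tables. Each was above 1 TPM (a length-corrected share of all transcripts) in every library, so each was among the 12512 genes tested. RNA came from mouse preleptotene spermatocytes, the germ cells that are about to enter meiosis, in testes synchronized with WIN18,446 on postnatal days 2 to 8 and retinoic acid on day 9. The cells were sorted on day 6.75 after retinoic acid by a tdTomato reporter switched on in germ cells by Ddx4-Cre. Of the 7 libraries, 3 came from Stra8 knock-out mice (Stra8-deficient) and 4 from Stra8 heterozygous mice, which carry 1 working copy of Stra8. The heterozygous samples were staged by STRA8 immunostaining into 2 low-STRA8 and 2 high-STRA8 libraries, so the 3 RNA groups share the drug treatment, the reporter and at least 1 mutated Stra8 allele. Binding of STRA8 was read by ChIP-seq with a FLAG antibody in whole, unsorted synchronized testes of 3 Stra8 FLAG/FLAG mice, whose STRA8 carries a FLAG tag, and of 3 wild-type mice without the tag, 1 mouse per replicate. STRA8 is a retinoic acid-induced protein required for meiotic initiation.

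Chromosomes attach to spindle microtubules through kinetochores, which are built on centromeric chromatin marked by CENP-A. The outer kinetochore NDC80 complex (NDC80, NUF2, SPC24 and SPC25) grips the microtubule, and the checkpoint proteins BUB1, BUB1B, BUB3, MAD2 and TTK hold the cell in metaphase until attachment is complete. The anaphase-promoting complex, with its activator CDC20, then marks securin (PTTG1) and mitotic cyclins for destruction, which frees separase (ESPL1) to open cohesin. Meiotic divisions use much of the same machinery, but only after a long prophase. Many of these genes are transcribed late in the cell cycle from promoters that carry a cell cycle genes homology region (CHR) and CCAAT boxes.

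The sequences below are the 100 bases around the highest FLAG summit in the promoters of the 8 members that had a summit in all 3 FLAG/FLAG libraries, shown because these are the positions at which STRA8 binding and the RNA changes can be read side by side. They were read from the GRCm38 (mm10) genome on the strand of the gene. Capitals mark a match, on either strand, to 1 of 4 short motifs: CNCCTCAG, searched as a STRA8 motif, TTTGAA, the core of the CHR, CCAAT, the NF-Y box, and TTTNGCGC, an E2F site.
Kif23, chr9:61946820-61946919, minus strand: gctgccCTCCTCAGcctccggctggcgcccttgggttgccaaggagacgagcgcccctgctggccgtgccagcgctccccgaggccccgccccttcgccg
Spc24, chr9:21760455-21760554, minus strand: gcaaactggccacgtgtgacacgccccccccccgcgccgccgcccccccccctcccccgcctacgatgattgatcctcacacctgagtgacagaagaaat
Bub1, chr2:127831641-127831740, minus strand: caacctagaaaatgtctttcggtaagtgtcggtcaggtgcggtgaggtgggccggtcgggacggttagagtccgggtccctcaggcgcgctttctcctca
Plk4, chr3:40800287-40800386, plus strand: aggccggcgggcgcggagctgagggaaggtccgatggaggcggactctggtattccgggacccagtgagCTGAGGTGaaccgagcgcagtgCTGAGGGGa
Cenpf, chr1:189688061-189688160, minus strand: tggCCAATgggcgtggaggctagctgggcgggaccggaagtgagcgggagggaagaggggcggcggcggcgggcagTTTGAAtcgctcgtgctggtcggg
Top2a, chr11:99024114-99024213, minus strand: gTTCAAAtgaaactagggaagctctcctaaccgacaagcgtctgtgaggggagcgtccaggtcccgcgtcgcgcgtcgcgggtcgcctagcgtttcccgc
Tpx2, chr2:152847943-152848042, plus strand: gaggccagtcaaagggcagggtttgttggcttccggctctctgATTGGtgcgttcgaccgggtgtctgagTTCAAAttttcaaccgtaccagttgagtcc
Birc5, chr11:117849142-117849241, plus strand: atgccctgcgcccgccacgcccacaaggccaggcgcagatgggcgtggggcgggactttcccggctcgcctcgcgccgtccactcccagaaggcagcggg

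For contrast, the RefSeq promoters (GRCm38.p6, 250 bases before to 50 after the start) of 2 members that fell and had no FLAG summit, Bub3 and Cenpa, carry the same late cell cycle motifs in the same capitals. Aurkb, which also fell, is named only.
Bub3, chr7:131560120-131560419, plus strand: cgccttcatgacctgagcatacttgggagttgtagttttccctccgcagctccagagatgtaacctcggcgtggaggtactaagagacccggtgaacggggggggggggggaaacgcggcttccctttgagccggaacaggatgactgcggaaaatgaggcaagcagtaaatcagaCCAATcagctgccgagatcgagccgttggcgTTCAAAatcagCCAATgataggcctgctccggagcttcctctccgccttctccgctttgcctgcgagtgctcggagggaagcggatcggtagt
Cenpa, chr5:30666636-30666935, plus strand: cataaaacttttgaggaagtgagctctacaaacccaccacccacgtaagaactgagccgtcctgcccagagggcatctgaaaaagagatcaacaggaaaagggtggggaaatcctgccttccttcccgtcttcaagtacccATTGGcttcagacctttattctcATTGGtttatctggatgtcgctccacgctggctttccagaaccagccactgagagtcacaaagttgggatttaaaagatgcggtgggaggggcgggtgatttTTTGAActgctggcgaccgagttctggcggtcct

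Stra8 itself was checked first. Its level was 18, 22.8 and 5.16 TPM in the Stra8-deficient libraries, 315 and 236 TPM in the low-STRA8 libraries, and 1099 and 1248 TPM in the high-STRA8 libraries, which is the order the labels give. Estimated read counts totalled 25049625 to 30015072 per library, and the lowest count of any member was 169. Marker genes of other cells were also summed. Sertoli markers, from the somatic cells that surround the germ cells, came to 748 to 1078 TPM in the Stra8-deficient, 960 and 1028 TPM in the high-STRA8, and 854 and 256 TPM in the low-STRA8 libraries; 0 of 10 passed the test between high-STRA8 and Stra8-deficient cells, and the defining genes Sox9 and Amh were never at 0. The Sertoli gene Clu was 3.47-fold lower in low-STRA8 than in Stra8-deficient cells (adjusted p = 0.0142) and 3.81-fold higher in high-STRA8 than in low-STRA8 cells (adjusted p = 0.00792), with 1 of 10 markers called in each of these comparisons. Undifferentiated spermatogonial markers were higher in Stra8-deficient cells (80.2 to 96.9 TPM, against 42 and 45.4 TPM in high-STRA8 and 36.7 and 40.9 TPM in low-STRA8 cells), with 3 of 9 lower in high-STRA8 cells by the test and 3 lower in low-STRA8 cells. Markers of differentiating spermatogonia summed to 1252 to 1500 TPM in Stra8-deficient, 1030 and 1120 TPM in low-STRA8 and 949 and 1018 TPM in high-STRA8 cells. Macrophage and blood markers reached 41.9 and 46.3 TPM in low-STRA8 cells, mostly from the globins Hbb-bs and Hba-a1, against 1.54 to 26 TPM in the other libraries. Leydig markers stayed at or under 18.9 TPM and those of peritubular and endothelial cells at 50.6 to 89.6 TPM. Markers of pachytene and later germ cells summed to at most 4.85 TPM, with Pgk2 at 0 in every library, and preleptotene markers to between 3135 and 9014 TPM. The part of these differences in the results below was not tested, and in bulk RNA fewer cells of a type and less RNA per cell cannot be told apart.

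Members were abundant. The median of their levels was 59.2 TPM in Stra8-deficient, 46.4 TPM in low-STRA8 and 61.8 TPM in high-STRA8 cells, where the median over all tested genes was 26.4, 22.2 and 25 TPM. Summed over the 44 genes, the level was 3381, 3370 and 2859 TPM in the Stra8-deficient libraries, 2758 and 2375 TPM in the low-STRA8 libraries, and 4630 and 4848 TPM in the high-STRA8 libraries. The summed level was thus highest in both high-STRA8 libraries and lowest in both low-STRA8 libraries. Smc4 and Top2a were the most abundant members in high-STRA8 cells.

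**Figure D1:**
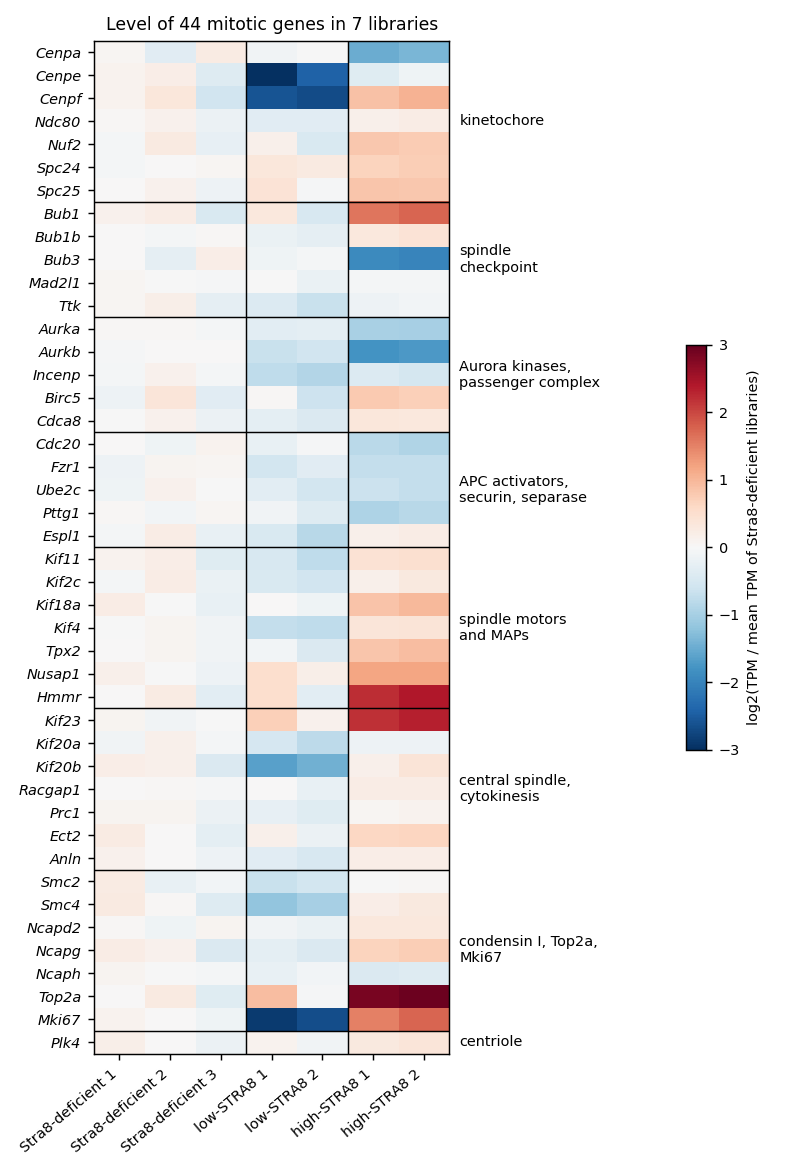
Level of each of the 44 members (rows, grouped by role) in each of the 7 libraries (columns), as log2 of its TPM over its mean TPM in the Stra8-deficient libraries, with higher levels in red and lower levels in blue. Top2a, Hmmr and Kif23 are red and Bub3, Cenpa and Aurkb blue in both high-STRA8 columns, and Cenpe, Cenpf and Mki67 are blue in both low-STRA8 columns.

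The comparison of high-STRA8 with Stra8-deficient cells asks which transcripts differ where STRA8 is abundant and where it is missing. The paper places high-STRA8 cells in mid or late preleptotene, after meiotic initiation, whereas Stra8-deficient cells fail to initiate. Genotype and stage therefore cannot be told apart in this comparison. In high-STRA8 cells 23 of the 44 members were higher and 10 lower, where 18.8% of all genes tested were higher and 18.2% lower. The share of members that were lower was thus only slightly above that of all genes. The median log2 fold change of the members was 0.35, and that of all genes was -0.02. The division ran through protein complexes. In high-STRA8 cells 6 of 7 spindle motors and microtubule-binding proteins rose and none fell, whereas 4 of 5 genes of the anaphase-promoting complex, securin and separase group fell and none rose. P-values here are adjusted by the Benjamini-Hochberg method over all genes in edgeR's quasi-likelihood test. They measure the spread between these libraries, which the study calls biological replicates. In simulated counts this test made more false calls than its threshold allows, so calls close to the threshold are the least firm.

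Among the kinetochore genes, Spc24, Spc25, Nuf2 and Cenpf rose, Cenpa fell, and Ndc80 and Cenpe did not pass the test. Cenpa encodes the histone H3 variant that marks centromeres. Its level was 90.5, 68.7 and 103 TPM in Stra8-deficient cells, 81.8 and 86.6 TPM in low-STRA8 cells, and 31.2 and 33.5 TPM in high-STRA8 cells. Both high-STRA8 libraries lay far below the other 5, and Cenpa was 2.73-fold lower than in Stra8-deficient cells (log2 fold change -1.45 ± 0.20, SE, adjusted p = 0.00105). The outer kinetochore subunit Spc24 went the other way. It stood at 80, 83.2 and 86.4 TPM in Stra8-deficient, 105 and 101 TPM in low-STRA8 and 133 and 138 TPM in high-STRA8 cells, with no overlap between any groups. The increase was 1.83-fold (log2 0.87 ± 0.09, SE, adjusted p = 0.000258). Its partners in the NDC80 complex, Spc25 (log2 0.88, adjusted p = 0.000952) and Nuf2 (log2 0.87, adjusted p = 0.00559), changed by about the same amount. Ndc80, the subunit that contacts the microtubule directly, had a log2 fold change of 0.26 ± 0.11 (SE, adjusted p = 0.0969). Cenpf, a large corona protein, was 2.08-fold higher in high-STRA8 cells than in the Stra8-deficient group (log2 1.06 ± 0.21, SE, adjusted p = 0.00515). Cenpe, a plus-end kinesin of the corona, had a log2 fold change of -0.14 ± 0.23 (SE, adjusted p = 0.668).

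The checkpoint genes split within a single protein pair. BUB1 is a kinase that binds kinetochores together with BUB3. Bub1 measured 93.7, 101 and 62.9 TPM in Stra8-deficient, 107 and 61.6 TPM in low-STRA8 and 262 and 289 TPM in high-STRA8 cells. It was 3.42-fold higher in high-STRA8 cells than in the Stra8-deficient group (log2 1.77 ± 0.23, SE, adjusted p = 0.000706), and the high-STRA8 libraries stood apart from the 5 others, which overlapped. Bub3 measured 79.5, 65.9 and 91.2 TPM in Stra8-deficient, 71.8 and 75.5 TPM in low-STRA8 and 20.9 and 20.1 TPM in high-STRA8 cells. It was 3.15-fold lower (log2 -1.65 ± 0.16, SE, adjusted p = 0.000199), again with the high-STRA8 libraries apart from the rest. The ratio of Bub1 to Bub3 TPM was therefore 0.69 to 1.54 in Stra8-deficient libraries, 0.815 and 1.49 in low-STRA8 libraries, and 12.6 and 14.4 in high-STRA8 libraries. This ratio, like the other ratios given here, was chosen after the values were seen. Bub1b, encoding the checkpoint protein BUBR1, rose by a smaller amount (log2 0.45 ± 0.10, SE, adjusted p = 0.00741). Mad2l1, which encodes MAD2, was nearly level, at 131 to 141 TPM, 117 and 134 TPM, and 129 and 129 TPM in the 3 groups in that order, Stra8-deficient cells first (log2 0.01 ± 0.09, SE, adjusted p = 0.927). The kinase gene Ttk had a log2 fold change of -0.03 ± 0.13 (SE, adjusted p = 0.89).

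Both Aurora kinase genes fell. Aurka, encoding the kinase of centrosomes and spindle poles, was at 28.3, 28.5 and 26.7 TPM in Stra8-deficient, 22.4 and 22.8 TPM in low-STRA8, and 14.1 and 13.9 TPM in high-STRA8 cells. The decrease from Stra8-deficient to high-STRA8 cells was 1.86-fold (log2 -0.89 ± 0.12, SE, adjusted p = 0.000961). Aurkb, encoding the kinase of the chromosomal passenger complex, was at 24.2, 24.9 and 25.1 TPM, 15.5 and 16.5 TPM, and 7.13 and 7.44 TPM in the same order of groups. None of the 3 groups overlapped another, and the decrease was 3.27-fold (log2 -1.71 ± 0.15, SE, adjusted p = 0.000129). The other subunits of that complex differed in direction. Birc5, which encodes survivin, was 1.82-fold higher, at 203 and 194 TPM in high-STRA8 cells, 107, 153 and 92.8 TPM in Stra8-deficient cells, and 120 and 76.4 TPM in low-STRA8 cells (log2 0.86 ± 0.21, SE, adjusted p = 0.0131). Cdca8, which encodes borealin, rose 1.32-fold (log2 0.40 ± 0.10, SE, adjusted p = 0.0148), and Incenp, the scaffold, fell 1.29-fold (log2 -0.37 ± 0.10, SE, adjusted p = 0.0217). Birc5 TPM was 3.7 to 6.17 times Aurkb TPM in Stra8-deficient libraries, 7.77 and 4.62 times in low-STRA8 libraries, and 28.5 and 26.1 times in high-STRA8 libraries. Tpx2 encodes the spindle protein that activates Aurora A, and it too moved against its kinase. It was at 58.1, 61 and 53.7 TPM in Stra8-deficient, 54.1 and 42.6 TPM in low-STRA8 and 102 and 109 TPM in high-STRA8 cells, a 1.97-fold increase (log2 0.98 ± 0.10, SE, adjusted p = 0.000303). The ratio of Tpx2 to Aurka went from 2.01 to 2.14 in Stra8-deficient libraries to 7.28 and 7.86 in high-STRA8 libraries, and was 2.42 and 1.87 in low-STRA8 libraries.

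The genes that act at anaphase were lower in high-STRA8 cells, with 1 exception. Cdc20, the mitotic activator of the anaphase-promoting complex, was at 95.5, 85.5 and 101 TPM in Stra8-deficient, 80.5 and 91 TPM in low-STRA8 and 53.9 and 50.7 TPM in high-STRA8 cells, and was 1.71-fold lower in high-STRA8 cells than in Stra8-deficient ones (log2 -0.78 ± 0.13, SE, adjusted p = 0.00248). Pttg1, encoding securin, was at 73.7, 68.2 and 74.8 TPM, 66.6 and 55.1 TPM, and 38.2 and 40.3 TPM in the same groups, and was 1.72-fold lower (log2 -0.78 ± 0.14, SE, adjusted p = 0.00374). In both genes the 2 high-STRA8 libraries were the lowest of the 7. Fzr1, which encodes the later activator CDH1 (log2 -0.65, adjusted p = 0.00748), and Ube2c, which encodes the E2 enzyme of the complex (log2 -0.61, adjusted p = 0.0106), fell as well. Espl1, which encodes separase, did not pass the test (log2 0.29 ± 0.14, SE, adjusted p = 0.13). The ratio of Espl1 to Pttg1 was 0.577 to 0.856 in Stra8-deficient libraries and 1.46 and 1.45 in high-STRA8 libraries.

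Spindle motor and microtubule-associated genes went up. Hmmr, encoding a microtubule-binding protein of spindle poles, was at 13, 15.4 and 10.3 TPM in Stra8-deficient, 18.3 and 10.3 TPM in low-STRA8, and 59.7 and 68.7 TPM in high-STRA8 cells. The 5.31-fold increase (log2 2.41 ± 0.23, SE, adjusted p = 0.000176) was the second largest among the members in this comparison. Nusap1, which encodes a microtubule-bundling protein, was at 30.9, 27.5 and 25.3 TPM, 39.7 and 31.5 TPM, and 62.9 and 63.5 TPM in the same order, with 3 separate groups and a 2.4-fold increase (log2 1.26 ± 0.11, SE, adjusted p = 0.000155). Kif18a, a kinesin that dampens chromosome oscillation (log2 1.0, adjusted p = 0.000655), the bipolar spindle kinesin Kif11 (log2 0.55, adjusted p = 0.0206) and the chromokinesin Kif4 (log2 0.46, adjusted p = 0.00469) also rose. Kif2c, a microtubule depolymerase, had a log2 fold change of 0.29 ± 0.13 (SE, adjusted p = 0.11).

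Central spindle genes divided by size of effect rather than by direction. KIF23 and RACGAP1 form the centralspindlin complex, which bundles midzone microtubules and positions the cytokinetic furrow. Kif23 was at 37, 32.4 and 34.6 TPM in Stra8-deficient, 57.3 and 37.8 TPM in low-STRA8 and 159 and 174 TPM in high-STRA8 cells. The increase over Stra8-deficient cells was 5.08-fold (log2 2.34 ± 0.15, SE, adjusted p = 5.8e-05), and the high-STRA8 values were far above the rest. Racgap1 was already at 101 to 106 TPM in Stra8-deficient cells and reached 121 and 121 TPM in high-STRA8 cells (log2 0.32 ± 0.08, SE, adjusted p = 0.0188). Kif23 TPM was thus 0.306 to 0.354 of Racgap1 TPM in Stra8-deficient libraries and 1.31 and 1.43 of it in high-STRA8 libraries. Ect2, the RhoA activator that binds centralspindlin, rose 1.64-fold (log2 0.71, adjusted p = 0.00484), and Anln, which encodes the ring component anillin, rose 1.23-fold (log2 0.29, adjusted p = 0.043). Kif20a (log2 -0.07, adjusted p = 0.654), Kif20b (log2 0.37, adjusted p = 0.144) and the bundling protein gene Prc1 (log2 0.21, adjusted p = 0.147) did not pass the test.

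Among the chromosome structure genes Top2a showed the largest change of any member. TOP2A is the topoisomerase that untangles sister chromatids. Top2a was at 107, 130 and 83.2 TPM in Stra8-deficient, 203 and 105 TPM in low-STRA8, and 764 and 826 TPM in high-STRA8 cells, a 7.94-fold increase (log2 2.99 ± 0.25, SE, adjusted p = 0.000116). Mki67, which encodes the surfactant-like Ki-67 coat of mitotic chromosomes, was at 18.6, 17.5 and 15.9 TPM, 2.38 and 2.75 TPM, and 49.2 and 58.5 TPM. It was 3.32-fold higher in high-STRA8 cells than in the Stra8-deficient group (log2 1.73 ± 0.12, SE, adjusted p = 6.63e-05). The condensin I genes did not move as a unit. Ncapg rose 1.74-fold (log2 0.80, adjusted p = 0.00544) and Ncapd2 1.33-fold (log2 0.41, adjusted p = 0.014), whereas Ncaph, the kleisin that closes the ring, fell 1.26-fold (log2 -0.33, adjusted p = 0.0434). The 2 ATPase genes, Smc2 (log2 0.10, adjusted p = 0.591) and Smc4 (log2 0.33, adjusted p = 0.15), did not pass the test. Plk4, the kinase gene of centriole duplication, was at 113, 101 and 87.9 TPM in Stra8-deficient, 107 and 93.7 TPM in low-STRA8 and 122 and 128 TPM in high-STRA8 cells, a rise of 1.31-fold over Stra8-deficient cells (log2 0.39 ± 0.10, SE, adjusted p = 0.0191).

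**Figure D2:**
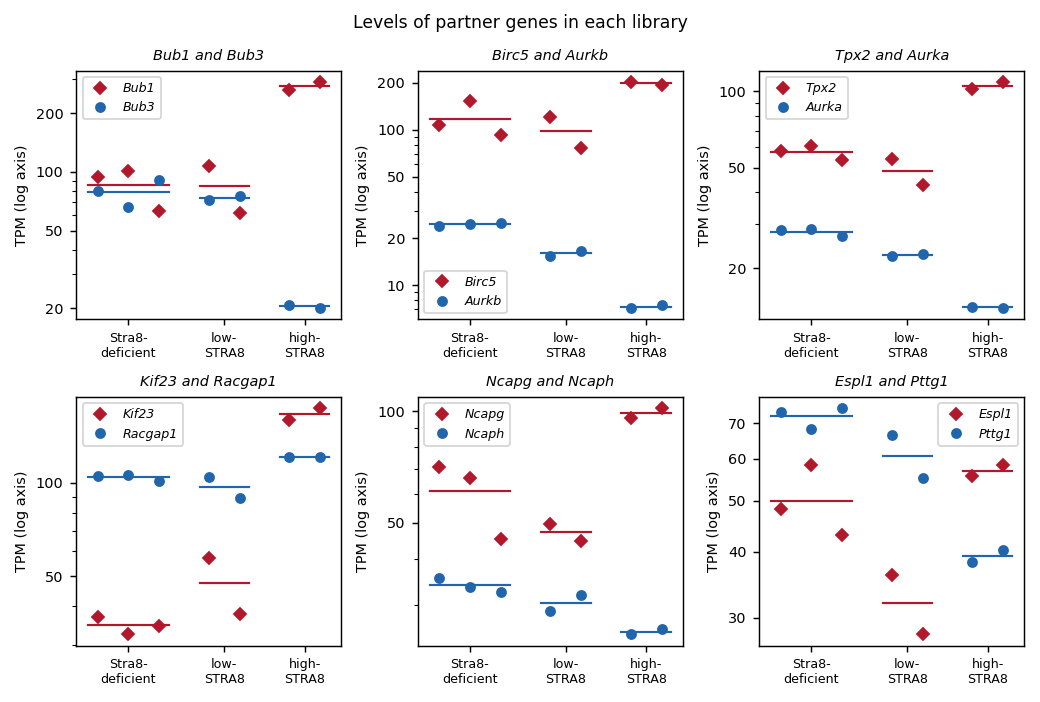
TPM in each library (log axis) for 6 pairs of members whose proteins act together, with 1 point per library, horizontal lines at the group means and groups along the horizontal axis. Bub1 lies at 262 and 289 TPM and Bub3 at 20.9 and 20.1 TPM in the high-STRA8 libraries, while in the Stra8-deficient and low-STRA8 libraries both lie between 61.6 and 107 TPM.

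The number of calls depended on both high-STRA8 libraries. With 1 of them left out, so that the lone high-STRA8 library was assumed to vary like the other groups, fewer genes were called altogether. Without high-STRA8 replicate 2, 12 members were higher and 6 lower (10.2% and 6.22% of all genes), and without high-STRA8 replicate 1, 16 were higher and 7 lower (11.3% and 8.05% of all genes). A set of 18 members kept their call under every alternative, the replicate block included. Of these, Nuf2, Spc24, Spc25, Bub1, Kif18a, Tpx2, Nusap1, Hmmr, Kif23, Ect2, Top2a and Mki67 were higher, and Cenpa, Bub3, Aurka, Aurkb, Cdc20 and Pttg1 were lower.

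The comparison of high-STRA8 with low-STRA8 cells is between heterozygous samples that differ in stage. In high-STRA8 cells 30 members were higher here and 8 lower, where 21.3% of all genes were higher and 18.3% lower. The share of members that were lower was thus near that of all genes. The median log2 fold change was 0.52 for members and 0.01 for all genes. Both groups share the high-STRA8 libraries with the comparison above, so the lists are not independent. Of the members, 21 were higher in both comparisons and 8 were lower in both: Cenpa, Bub3, Aurka, Aurkb, Cdc20, Fzr1, Pttg1 and Ncaph. The share of all genes called in both comparisons was not counted. A further 9 were higher than in low-STRA8 cells but passed no test against Stra8-deficient cells, namely Cenpe, Espl1, Kif20a, Kif20b, Smc4, Ndc80, Kif2c, Prc1 and Smc2. Racgap1 and Plk4 were higher, and Incenp and Ube2c lower, against Stra8-deficient cells without passing the test against low-STRA8 cells. Mad2l1 and Ttk passed the test in none of the 3 comparisons.

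The largest decreases were again those of Bub3 (3.52-fold lower, log2 -1.82 ± 0.17, SE, adjusted p = 0.000584), Cenpa (3.03-fold lower, log2 -1.60 ± 0.22, SE, adjusted p = 0.00147) and Aurkb (2.46-fold lower, log2 -1.30 ± 0.16, SE, adjusted p = 0.001). Cdc20 (log2 -0.85, adjusted p = 0.00303), Aurka (log2 -0.78, adjusted p = 0.00332) and Pttg1 (log2 -0.75, adjusted p = 0.00704) followed. Among the genes that rose, Top2a was 4.87-fold higher (log2 2.28 ± 0.28, SE, adjusted p = 0.00115), Hmmr 4.24-fold higher (log2 2.08 ± 0.26, SE, adjusted p = 0.0011), Kif23 3.27-fold higher (log2 1.71 ± 0.17, SE, adjusted p = 0.000613) and Bub1 3.07-fold higher (log2 1.62 ± 0.26, SE, adjusted p = 0.00265). These are the genes that also rose most against Stra8-deficient cells. Smaller increases were those of Tpx2 (log2 1.04, adjusted p = 0.000858), Kif4 (log2 1.01, adjusted p = 0.000632), Birc5 (log2 1.0, adjusted p = 0.0121), Ncapg (log2 0.98, adjusted p = 0.00433), Kif11 (log2 0.98, adjusted p = 0.00335), Kif18a (log2 0.86, adjusted p = 0.00294), Nuf2 (log2 0.80, adjusted p = 0.0135) and Nusap1 (log2 0.73, adjusted p = 0.00369). Spc24 (log2 0.47, adjusted p = 0.00751), Spc25 (log2 0.48, adjusted p = 0.0237), Ndc80 (log2 0.40, adjusted p = 0.0288), Ect2 (log2 0.52, adjusted p = 0.0272), Anln (log2 0.51, adjusted p = 0.00733), Cdca8 (log2 0.56, adjusted p = 0.00611) and Bub1b (log2 0.50, adjusted p = 0.00797) rose by less.

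Several members, among them the very long Mki67, Cenpf and Cenpe and the shorter Kif20b (effective length 4204 bases), stood out against low-STRA8 cells. Mki67 was 19.6-fold higher in high-STRA8 than in low-STRA8 cells (log2 4.30 ± 0.16, SE, adjusted p = 2.32e-05), and Cenpf was 11.3-fold higher (log2 3.50 ± 0.26, SE, adjusted p = 0.00042). Cenpf had 42.1, 49.1 and 26.2 TPM in Stra8-deficient, 6.52 and 6.09 TPM in low-STRA8 and 71.4 and 80.1 TPM in high-STRA8 cells. Cenpe had 52.9, 56.5 and 37.5 TPM, 5.55 and 9.07 TPM, and 37.8 and 45.1 TPM, and was 5.31-fold higher in high-STRA8 than in low-STRA8 cells (log2 2.41 ± 0.27, SE, adjusted p = 0.000859). Kif20b, a kinesin of the midzone, had 46.6, 45.4 and 29.9 TPM, 13.2 and 14.9 TPM, and 44.9 and 53.4 TPM, and was 3.27-fold higher (log2 1.71 ± 0.21, SE, adjusted p = 0.00104). In these genes the low-STRA8 libraries lay below all others. For Cenpe and Kif20b the Stra8-deficient and high-STRA8 libraries overlapped, whereas for Mki67 and Cenpf the high-STRA8 libraries lay above the Stra8-deficient ones. The effective transcript lengths of Mki67, Cenpf, Espl1 and Cenpe, at 9563, 9708, 7584 and 6738 bases, are among the longest tested. Across all genes, the log2 fold change between high-STRA8 and low-STRA8 cells moved with length, from a median of -0.34 in the shortest to 0.42 in the longest of 5 length classes of equal size, and between low-STRA8 and Stra8-deficient cells it moved from 0.27 to -0.37. Between high-STRA8 and Stra8-deficient cells it ran only from -0.10 to 0.04. Of the members, 7 lay in the longest class and 6 in the shortest. The origin of the length trend was not tested.

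A fit with this length trend taken out as an offset for each library called 26 members up and 7 down in high-STRA8 against low-STRA8 cells, with 18% and 17.7% of all genes, and a median of 0.48 for members. In that fit Mki67 (log2 3.53), Cenpf (log2 2.72), Cenpe (log2 1.92, adjusted p = 0.00135) and Kif20b (log2 1.51, adjusted p = 0.00135) still passed the test, whereas Espl1 went from 0.74 (adjusted p = 0.00673) to 0.15 (adjusted p = 0.459). Pttg1, at 573 bases the shortest member, went from -0.75 to -0.37 (adjusted p = 0.0905), and Ncapd2 from 0.37 (adjusted p = 0.0299) to 0.07 (adjusted p = 0.713). Kif20a (0.28, adjusted p = 0.122) and Smc2 (0.34, adjusted p = 0.1) were the other members to lose their call. Against Stra8-deficient cells the offset left the high-STRA8 counts at 23 higher and 10 lower (19.5% and 19.4% of all genes). Among the 1105 genes with an effective length of at least 6000 bases, the log2 fold change between high-STRA8 and low-STRA8 cells had a median of 0.60 and a 90th percentile of 1.62, or -0.03 and 0.97 with the offset. The values of Mki67, Cenpf and Cenpe exceeded both percentiles. Without high-STRA8 replicate 2 the counts of members fell to 16 higher and 5 lower (9.75% and 4.24% of all genes), and without high-STRA8 replicate 1 to 20 higher and 5 lower (12.7% and 8.12% of all genes).

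**Figure D3:**
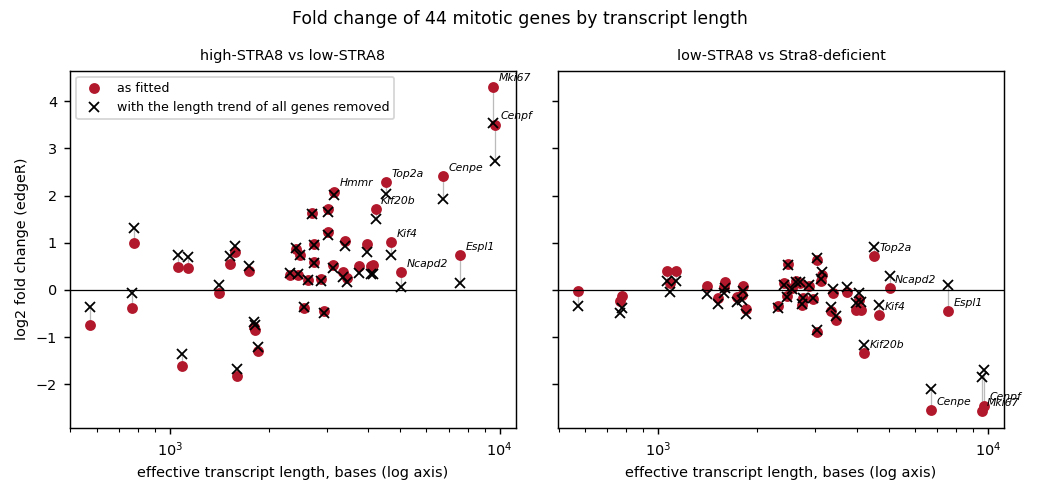
Log2 fold change of each of the 44 members against its effective transcript length in bases (log axis), as fitted (circles) and with the length trend of all genes taken out (crosses), for high-STRA8 vs low-STRA8 and for low-STRA8 vs Stra8-deficient cells. Mki67 moves from 4.30 to 3.53 and Cenpf from 3.50 to 2.72 in the first comparison, and Espl1 from 0.74 to 0.15.

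Low-STRA8 and Stra8-deficient cells differed at fewer members. In low-STRA8 cells 4 members were higher and 9 lower, where 10.1% of all genes were higher and 13.9% lower. The share of members that were higher was near that of all genes. The median was -0.12 for members and 0.03 for all genes. The 4 that were higher were Spc24 (log2 0.40, adjusted p = 0.0161), Spc25 (log2 0.41, adjusted p = 0.044), Nusap1 (log2 0.54, adjusted p = 0.014) and Kif23 (log2 0.64, adjusted p = 0.0187). These 4 passed the test as higher at each step, in low-STRA8 over Stra8-deficient and in high-STRA8 over low-STRA8 cells. No call of the 4 remained when low-STRA8 replicate 1 was left out, and Spc24 (0.20, adjusted p = 0.214) and Spc25 (0.20, adjusted p = 0.327) lost theirs with the length-trend offset. That fit gave 3 higher and 9 lower members (9.45% and 8.33% of all genes), the third being Top2a (log2 0.92, adjusted p = 0.0329, against 0.71 and 0.0698 without the offset). The test on log2(TPM + 1) in limma gave another split, of 1 higher and 18 lower (3.96% and 21.6% of all genes), with an all-gene median of -0.15.

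The 9 members that were lower in low-STRA8 than in Stra8-deficient cells were Mki67 (log2 -2.57 ± 0.14, SE, adjusted p = 0.00051), Cenpe (log2 -2.55 ± 0.26, SE, adjusted p = 0.0016), Cenpf (log2 -2.45 ± 0.24, SE, adjusted p = 0.0015), Kif20b, Smc4, Incenp, Kif4, Espl1 and Kif20a. With the offset the values of the first 3 were -1.85 (adjusted p = 0.000553), -2.09 (adjusted p = 0.00187) and -1.70 (adjusted p = 0.00175). Among genes of at least 6000 bases the 10th percentile was -1.41, or -0.76 with the offset. Smc4, the condensin ATPase, was the most abundant member in Stra8-deficient cells, at 581, 492 and 365 TPM. It dropped to 212 and 242 TPM in low-STRA8 cells (log2 -0.89 ± 0.17, SE, adjusted p = 0.00881) and stood at 551 and 591 TPM in high-STRA8 cells, 2.33-fold above low-STRA8 cells (log2 1.22, adjusted p = 0.00208). At an effective length of 3023 bases, Smc4 had a log2 fold change of -0.85 (adjusted p = 0.00957) between low-STRA8 and Stra8-deficient cells with the offset. Incenp was at 47.1, 53.9 and 47 TPM in Stra8-deficient, 29 and 26.6 TPM in low-STRA8, and 37.1 and 34.4 TPM in high-STRA8 cells, so that its low-STRA8 values were the lowest (log2 -0.64, adjusted p = 0.00524). Kif4 (log2 -0.54, adjusted p = 0.00607) and Kif20b (log2 -1.34, adjusted p = 0.00347) kept their calls with the offset, whereas Kif20a (-0.44, adjusted p = 0.0274) went to -0.37 (adjusted p = 0.0609) and Espl1 (-0.45, adjusted p = 0.0492) changed sign to 0.10 (adjusted p = 0.649). Aurkb (log2 -0.50, adjusted p = 0.0368, against -0.41 and 0.0634 without the offset) and Ube2c (log2 -0.49, adjusted p = 0.0408, against -0.23 and 0.263) passed the test with the offset.

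Ordered by mean TPM, 22 members were lowest in low-STRA8 and highest in high-STRA8 cells, and 8 went up from Stra8-deficient through low-STRA8 to high-STRA8 cells. A further 9 went down in that order and 5 were lowest in low-STRA8 and highest in Stra8-deficient cells. The share of all genes in each order was not counted, so these counts cannot be called particular to the members. Neighbours in these orders often did not differ by the test: of the 9 that went down, none passed it between Stra8-deficient and low-STRA8 cells in the fit without the offset.

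**Figure D4:**
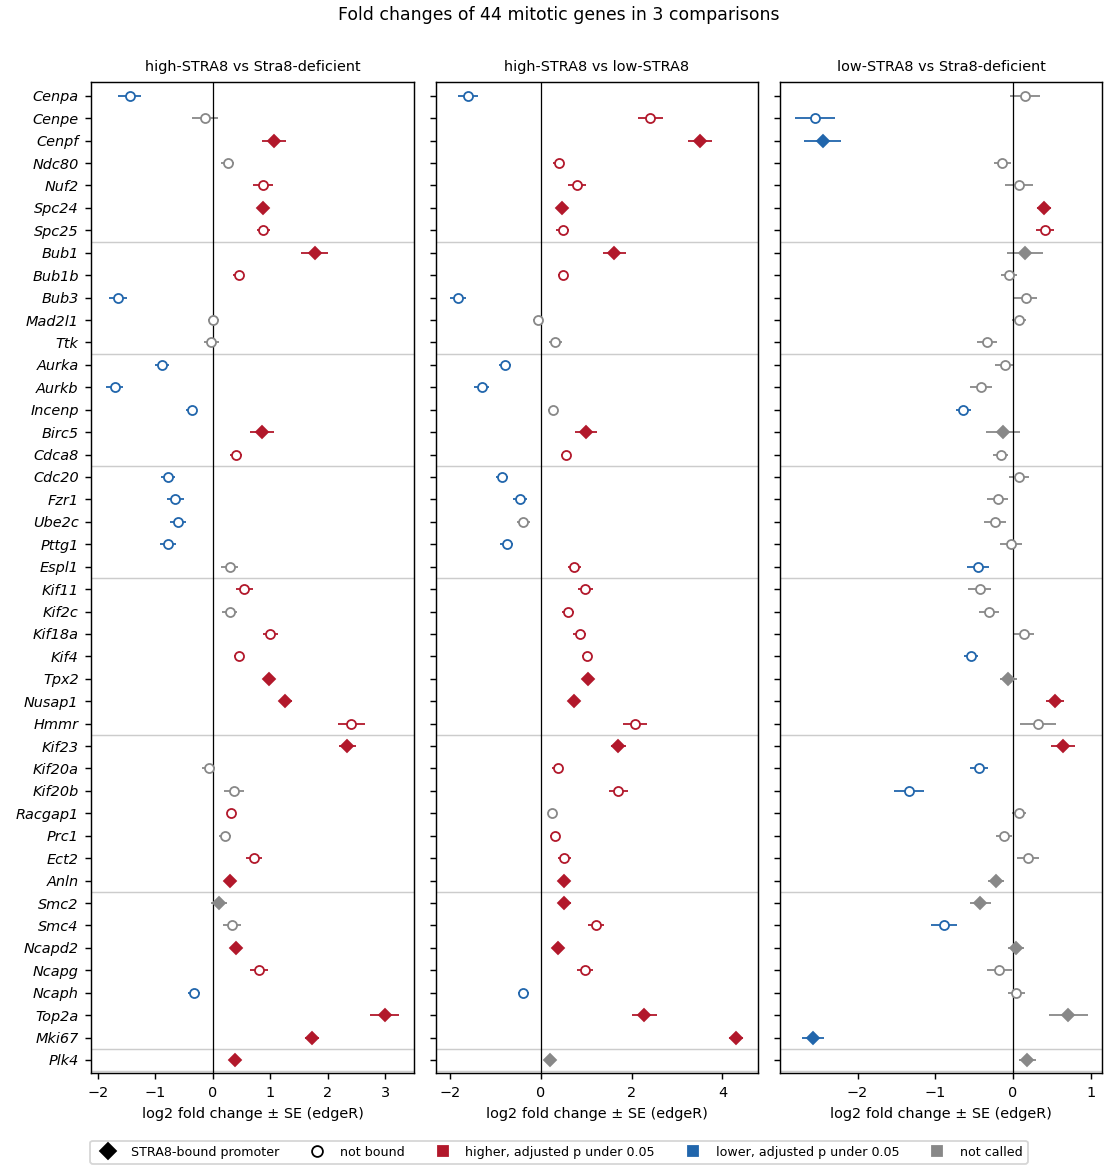
Log2 fold change from edgeR with its standard error for each of the 44 members, in rows grouped by role, in 3 panels for the 3 comparisons. Red marks members higher and blue members lower at an adjusted p under 0.05, grey the rest, filled diamonds mark STRA8-bound promoters and open circles the others, and the high-STRA8 vs Stra8-deficient panel runs from -1.71 (Aurkb) to 2.99 (Top2a).

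STRA8 binding was read from FLAG ChIP summits, the positions of highest enrichment in each peak that the authors called in each replicate against its input. The 3 FLAG/FLAG libraries held 5687, 3299 and 2035 summits and the 3 wild-type libraries 798, 45 and 164. A promoter was counted as bound if a summit lay within 1 kb of a protein-coding transcription start in at least 2 of the 3 FLAG/FLAG libraries and in no wild-type library. By this count 13 of 44 members were bound (29.5%), against 22.5% of all genes. They were Cenpf and Spc24 of the kinetochore, Bub1 of the checkpoint, Birc5, the spindle genes Tpx2 and Nusap1, Kif23 and Anln of the midzone and ring, Smc2, Ncapd2, Top2a and Mki67 of the chromosome, and Plk4. A summit in all 3 libraries was found for 8 members (18.2%), against 11.9% of all genes. With a summit in any 1 library the count was 22 (38.3% of all genes), and without FLAG/FLAG replicate 1 or replicate 2 it was 8 each (12.1% and 13.3% of all genes). With summits scoring at least 10 it was 9, or 20.5% of members against 18.1% of all genes, a share near the background. No member promoter had a wild-type summit.

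Kif23 had the strongest signal. Its summit scores (-log10 p) were 125, 59.2 and 63.8 in the 3 FLAG/FLAG libraries, where the median summit of each library scored 14.4, 13.5 and 14, and the summits lay at -96, -152 and -43 bases from the start. Spc24 scored 52, 13.7 and 27.7 (at -202, -155 and -151 bases) and Bub1 41.5, 24.5 and 18.6, inside the gene at 174, 159 and 204 bases. Plk4 scored 23.3, 37.7 and 9.96 and Cenpf 23.5, 18.1 and 9.07. The other 3 lay closer to the library medians or below them: Top2a scored 15.3, 17 and 12.7, Tpx2 16.7, 9.75 and 11.8, and Birc5 17, 9.06 and 7.89. Of these 8 genes, Top2a had the largest RNA increase, with a score near the library median, and Plk4 the smallest, with higher scores in 2 of the 3 libraries. Summits in 2 libraries were found for Nusap1 (15.8 and 23.3), Mki67 (15.6 and 17, at 353 and 293 bases), Anln (19.9 and 9.2), Smc2 (13.7 and 6.23) and Ncapd2 (11 and 7.13). Nusap1 shares its promoter with Oip5, Ncapd2 with Mrpl51 and Smc4 with Ift80, so the summit cannot be assigned to 1 of the pair. Oip5, which encodes a CENP-A loading factor, was also higher in high-STRA8 cells than in Stra8-deficient ones (log2 0.67 ± 0.12, SE, adjusted p = 0.00388), as was Ift80 (log2 0.74, adjusted p = 0.00179), whereas Mrpl51 had a log2 fold change of 0.18 (adjusted p = 0.282). A summit in 1 library only was seen at Kif18a (29.3), Smc4 (18.2), Mad2l1 (17.1), Ncapg (16.4), Ect2 (15.4), Kif20b (11.2), Fzr1 (10.9), Racgap1 (10.1) and Spc25 (9.38), and 8 of these 9 were in the first replicate, the library with the most summits.

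**Figure D5:**
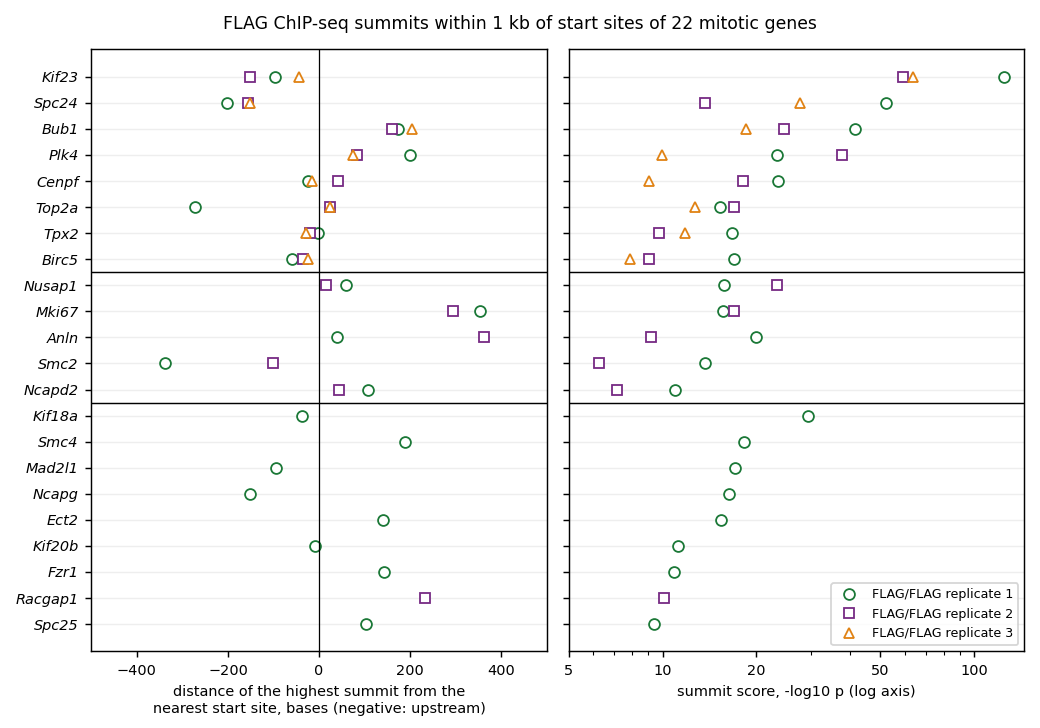
Distance in bases from the nearest start site (left) and score as -log10 p (right, log axis) of the highest FLAG summit in each FLAG/FLAG library, for the 22 members with a summit within 1 kb in any library, sorted by the number of libraries and by mean score. The summits of Kif23 carry the highest scores, 59.2 to 125.

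Bound members were mostly higher. In high-STRA8 compared with Stra8-deficient cells, 12 of the 13 bound members were higher and 0 were lower (median log2 fold change 0.98), the exception being Smc2 at 0.10. Over all bound genes 47.6% were higher and 5.71% lower. Of the 31 members that were not bound, 11 were higher and 10 lower (median 0.26), against 10.6% and 22% of all unbound genes. Against low-STRA8 cells 12 of the 13 bound members were higher, all but Plk4, and 0 were lower (median 1.0), with 44.1% and 7.92% over all bound genes, whereas 18 of the unbound members were higher and 8 lower, against 14.8% and 21.3% of all unbound genes. Between low-STRA8 and Stra8-deficient cells, 3 bound members were higher and 2 lower (23.1% and 15.4%), close to the 20.2% and 13.8% of all bound genes. Each of the 10 members that fell in high-STRA8 compared with Stra8-deficient cells was unbound, Fzr1 alone having a summit in 1 library. Over all genes tested, 2120 of those that fell were unbound and 160 bound, so the members were near that background. Binding did not accompany every increase, since Hmmr, with the second largest, had no summit within 1 kb in any library. The ChIP was made on whole testes and the RNA on sorted cells, so that summits and levels are not from the same cells.

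The motifs were counted on both strands. TTTGAA was present in 27 of the 38 members with a RefSeq promoter of 300 bases (71.1%), against 13.9% of all genes with one. Members with and without STRA8 binding (63.6% and 74.1%), and members that went up and that went down in high-STRA8 cells (71.4% and 62.5%), all carried it. CCAAT was present in 68.4% of the member promoters and 43.6% of all, and TTTNGCGC in 7.89% and 2.83%. In the printed promoters of Bub3 and Cenpa, which fell, 1 TTTGAA and 2 CCAAT matches stand, and the summit windows of Cenpf, Top2a and Tpx2, which rose, also hold a TTTGAA match. CNCCTCAG was present in 7.89% of the member promoters and 11.2% of all. Over 2 kb around the start it was found for 47.7% of members and 46.3% of all genes, and for 69.2% of bound members and 61.6% of all bound genes. In the 100 bases at the highest summit it was present in 3 of 13 bound members, Kif23, Mki67 and Plk4, against 12% of all summits. The 12% covers FLAG/FLAG summits of any score, in promoters or elsewhere, so the shares are not of like sets. Spc24, Bub1, Cenpf, Top2a, Tpx2 and Birc5 had no match to it in the printed windows. A match shows only that the letters occur in the window.

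Other genes of the same machinery were read from a list of 110, of which 108 were tested. In high-STRA8 compared with Stra8-deficient cells 56 were higher and 12 lower (median log2 fold change 0.43). Over all genes 18.8% were higher and 18.2% lower. The constitutive inner kinetochore, which sits on CENP-A chromatin, had 11 of 14 genes higher and only Cenpt lower (log2 -0.81 ± 0.12, SE, adjusted p = 0.00142), although Cenpa itself fell. Cenpm showed the largest rise of that group, from 7.18, 12 and 9.13 TPM to 55.8 and 51.8 TPM (log2 2.57 ± 0.24, SE, adjusted p = 0.000168). The CENP-A loading factors Mis18a (log2 0.46, adjusted p = 0.0114) and Oip5 rose too, and the chaperone gene Hjurp had a log2 fold change of -0.17 (adjusted p = 0.187). In condensin II, Ncapg2 rose 1.88 ± 0.14 on the log2 scale (SE, adjusted p = 7.61e-05) and Ncapd3 0.67 (adjusted p = 0.00194), and Ncaph2 had a log2 fold change of -0.06 (adjusted p = 0.653). The kleisin genes of both condensins, Ncaph and Ncaph2, were thus the subunits without an increase other than the shared ATPases.

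Regulators of entry into division were found on both sides. Plk1, the polo kinase, was at 22.4, 18.8 and 24.8 TPM in Stra8-deficient, 10.6 and 11.5 TPM in low-STRA8 and 3.96 and 3.02 TPM in high-STRA8 cells, with no overlap between groups (log2 -2.57 ± 0.21, SE, adjusted p = 0.000112). Ccnb1, encoding cyclin B1, fell by 2.14 on the log2 scale (adjusted p = 8.32e-05) and Cdc25c, encoding the phosphatase that activates CDK1, had a log2 fold change of -2.47 (adjusted p = 0.000385). All 3 also fell against low-STRA8 cells, with log2 fold changes of -1.78 for Plk1, -1.57 for Ccnb1 and -1.44 for Cdc25c. Bora, whose product lets Aurora A activate PLK1, fell by 0.74 (adjusted p = 0.00202) against Stra8-deficient cells. Cdk1 itself had a log2 fold change of 0.42 (adjusted p = 0.151), and Wee1, the kinase that inhibits CDK1, rose 0.96 (adjusted p = 0.000775). Cdc25a rose most of the listed mitotic cyclin and kinase genes (log2 1.79, adjusted p = 7.61e-05), and Pbk, Pkmyt1, Nek2, Ccna2 and Mastl were also higher. In that group of 15 genes, 7 were higher and 5 lower, against 18.8% and 18.2% of all genes. Fbxo5, encoding EMI1, an inhibitor of the anaphase-promoting complex, was at 13.4, 16 and 8.98 TPM in Stra8-deficient, 35.9 and 15.2 TPM in low-STRA8 and 73 and 77.2 TPM in high-STRA8 cells (log2 2.62 ± 0.32, SE, adjusted p = 0.000571). Its rise came with lower levels of the activators Cdc20 and Fzr1 and of the subunit genes Cdc23 (log2 -0.68, adjusted p = 0.00161), Cdc26 (log2 -0.95, adjusted p = 0.0075) and Cdc27 (log2 -0.59, adjusted p = 0.0204), whereas Anapc10 (log2 1.09, adjusted p = 0.000198), Anapc15 (log2 0.61, adjusted p = 0.00538), Anapc5 (log2 0.43, adjusted p = 0.00536), Cdc16 (log2 0.31, adjusted p = 0.0331) and the E2 enzyme gene Ube2s (log2 0.38, adjusted p = 0.0127) rose. With Fbxo5, 6 of the 16 genes in this group were higher and 3 lower, against 18.8% and 18.2% of all genes.

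Against low-STRA8 cells 41 of the 108 were higher and 16 lower (median 0.27), or 49 and 14 with the length-trend offset. The shares of all genes were 21.3% and 18.3%, or 18% and 17.7% with the offset. The largest increases were those of Kif15 (log2 2.18, adjusted p = 0.0012), Cit (log2 2.15, or 1.35 with the offset) and the kinetochore scaffold gene Knl1 (log2 2.06, or 1.72 with the offset). In low-STRA8 compared with Stra8-deficient cells 26 were higher and 15 lower (median 0.12), or 19 and 15 with the offset. All genes had shares of 10.1% and 13.9%, or 9.45% and 8.33% with the offset. Cenpm (log2 1.77, adjusted p = 0.00272), Fbxo5 (log2 1.18, adjusted p = 0.0307, or 1.03 and 0.0629 with the offset) and Cdc25a (log2 1.15, adjusted p = 0.00197) were the most increased there. Cit (log2 -2.05, or -1.28 with the offset), Aspm (log2 -1.39, or -0.76) and Kif15 (log2 -1.34, or -1.18) were the most decreased. Foxm1 and Mybl2 encode transcription factors of late cell cycle genes. Foxm1 was at 39.4, 51.8 and 34.2 TPM in Stra8-deficient, 25.6 and 19.7 TPM in low-STRA8 and 51 and 54.5 TPM in high-STRA8 cells, which did not pass the test between high-STRA8 and Stra8-deficient cells (log2 0.47 ± 0.17, SE, adjusted p = 0.0597) but did against low-STRA8 cells (log2 1.13, adjusted p = 0.0031). Mybl2 was higher in high-STRA8 cells in both comparisons (log2 0.52, adjusted p = 0.00863, and log2 0.73, adjusted p = 0.00385). Of the 108 genes, 38 had a bound promoter, where 22.5% of all genes had one.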

How the data were processed

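RNA-seq was analysed for 7 libraries of sorted preleptotene cells and FLAG ChIP-seq for 6 immunoprecipitates, each called by the authors against the input of its own replicate. The authors quantified reads with kallisto 0.43.0 against mouse transcripts (mm10), and the estimated counts per transcript and TPM per gene are used here as deposited. The deposited DESeq2-normalized counts, a signal scaled by gene-specific factors in DESeq2 1.18.1, were only compared with the estimated counts of the members and were not tested. ChIP reads were aligned by the authors with Bowtie 1.2.0 and peaks called per replicate with MACS2 2.1.1.20160309, and the deposited summit score is -log10 of the p-value.

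Estimated counts of protein-coding transcripts were summed per gene and rounded. The sums were joined to the 22419 gene symbols of the TPM tables through GENCODE M21, accepting a match when TPM differed by at most 0.2 percent or 0.003 TPM, which left 33 of 12545 genes above 1 TPM unjoined. Genes above 1 TPM in at least 1 library (12512) were fitted in edgeR 4.0.16 (R 4.3.3) with TMM factors and the robust quasi-likelihood test over all 7 libraries (4 residual degrees of freedom), with 3 contrasts and Benjamini-Hochberg adjustment at 0.05. The SE is the size of the log2 fold change divided by the square root of F. The length-trend offset removed from each library a lowess trend (span 0.3) of its log ratio to the mean library on effective length. Alternatives were DESeq2 1.42.0, limma 3.58.1 on log2(TPM + 1) and log2(TPM + 0.1), RLE factors, no filter, only the 2 groups compared, the replicate block and leaving out each library. The fits were tested on simulated counts, where they recovered most changed genes but made more false calls than the nominal rate. Summits were assigned to promoters within 1 kb of protein-coding starts (12451 of the tested genes have one), with 500 bp and 2 kb as alternatives, and a minimum score of 10 as another. RefSeq promoters (GRCm38.p6) were matched by symbol for 38 of 44 members. Members and gene lists were chosen with earlier results of these data known. All members are named. Values in each library are given by rule for the 6 largest increases and decreases in each comparison of high-STRA8 cells and for members bound in 3 libraries, and for a few more; other pathway genes are the 3 largest changes each way, Foxm1 and Mybl2, and some chosen after their values were seen. Replicate libraries of a group differed by more than sampling noise, so the spread between libraries sets the precision.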

Additional observations from a re-analysis of the deposited data

How the results depend on the processing

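Of 1980 member log2 fold changes recomputed under the alternatives, 1780 kept their side of the threshold, without a change of sign in any that passed the test, 163 lost their call and 36 gained one; some values that did not pass the test changed sign. The 1 value past the test that changed sign was Espl1 in low-STRA8 vs Stra8-deficient cells, 0.10 with the length-trend offset, where the alternative removes by construction a trend that long genes follow. Leaving out 1 library at a time, the members higher in high-STRA8 vs Stra8-deficient cells numbered 12 to 23 and those lower 6 to 10, the members higher in high-STRA8 vs low-STRA8 cells 16 to 30 and those lower 5 to 8, and the members higher in low-STRA8 vs Stra8-deficient cells 0 to 6 and those lower 7 to 11. The lowest counts of the comparisons with high-STRA8 cells came without high-STRA8 replicate 2, and the count of 0, in edgeR, without low-STRA8 replicate 1. In low-STRA8 vs Stra8-deficient cells, limma on log2(TPM + 1) and on log2(TPM + 0.1) each gave 1 higher and 18 lower members. The shares of all genes were 3.96% and 21.6% in the first and 4.06% and 21.8% in the second, and the medians -0.15 and -0.18. The fit on only the 2 groups compared gave 2 higher members, with 5.35% of all genes. The cause of these differences was not tested. DESeq2 gave 23 and 10, 29 and 8, and 5 and 11 members higher and lower in the 3 comparisons. Its shares of all genes were 19.1% and 19.1%, 21.9% and 18.7%, and 11.9% and 15.4%. The replicate block left 2 residual degrees of freedom and gave 18 and 7, 27 and 6, and 2 and 8. With it the shares of all genes were 14.7% and 12.3%, 20% and 15.8%, and 8.32% and 12.2%. Same-numbered libraries deviated from their group means with correlations of -0.166 to -0.0288, so the numbers were not taken to pair the samples. Bound members numbered 22 with a summit in any 1 library and 8 with a summit in all 3, and 8 to 13 when a FLAG/FLAG library was left out. The lowest count of any member was 169 reads, and each heterozygous group held 2 libraries.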
